A study of Mus musculus with 6 samples.

Results

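The interferon response was followed through 39 mouse genes, of 55487 in the deposited table, chosen by name from the known pathway: receptors, STAT and IRF transcription factors, sensors of viral nucleic acid, and families of antiviral effector genes. This list, and the lists of other pathway genes and markers below, were chosen with earlier results of these data known. Each of the 39 names matched 1 row, and all 39 genes passed the filter on low counts. RNA came from LSK cells of bone marrow, the lineage-negative, Sca-1-positive, Kit-positive population in which haematopoietic stem cells and early progenitors are found. The tally was 3 libraries from Mc5r-/- mice (called Mc5r-null here), which lack the melanocortin 5 receptor, and 3 libraries from littermate wild-type mice. The series describes the mice of both genotypes as irradiated; the sources used here give no dose, time, age or number of mice per library, and unirradiated mice were not analysed here. The null allele is not described as restricted to blood cells.

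Type I interferons bind the receptor chains encoded by Ifnar1 and Ifnar2, and the JAK1 and TYK2 kinases then activate STAT factors, of which STAT2 enters the complex ISGF3 with IRF9. This complex binds the interferon-stimulated response element (ISRE) before antiviral genes. Interferon gamma acts through a receptor with the chain encoded by Ifngr1 and through STAT pairs that bind the gamma-activated sequence (GAS), with guanylate-binding proteins (GBP) and immunity-related GTPases (IRG) among the typical targets. In haematopoietic stem cells interferons are known to drive cells out of quiescence, and some interferon-stimulated genes are expressed in stem cells without infection.

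Promoter letters are shown for 10 genes, Bst2 as the most abundant member and 9 from families whose members differed in their calls, so that relatives can be read beside their values. Each gene shown holds the letters searched, and relatives without them are not shown. The ISRE-type letters searched were GAAANNGAA, which read TTCNNTTTC on the other strand, and both strands were searched in RefSeq windows of build GRCm38.p6 from 250 bases before to 50 after each gene start. Only 28 of the 39 genes (71.8%) had a window, so a count over the whole list is void. Of those 28, 18 (64.3%) held such letters, which occur in 9.76% of all 27025 genes with a window. Of the 11 genes called lower in Mc5r-null below, 6 had a window, and all 6 held such letters. So did 2 of 3 called higher and 10 of 19 not called that had a window. A difference between these classes was not tested. Oasl2, Irf1, Irf7 and Irf9, from families with a called gene, had windows without such letters. Each line gives a stretch of 60 bases around the match, read 5′ to 3′ on the gene's strand and lying between positions -167 and -1 relative to the RefSeq gene start, with the ISRE-type letters in capitals, where neighbouring matches can overlap.
Gbp2 (chr3:142620562-142620621, plus strand): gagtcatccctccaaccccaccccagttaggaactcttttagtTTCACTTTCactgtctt
Gbp3 (chr3:142559963-142560022, plus strand): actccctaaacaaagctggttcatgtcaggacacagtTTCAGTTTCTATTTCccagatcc
Gbp7 (chr3:142530241-142530300, plus strand): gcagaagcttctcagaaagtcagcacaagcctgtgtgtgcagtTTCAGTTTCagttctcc
Irgm1 (chr11:48871428-48871487, minus strand): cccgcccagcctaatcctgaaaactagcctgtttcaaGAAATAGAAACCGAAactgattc
Irgm2 (chr11:58214870-58214929, plus strand): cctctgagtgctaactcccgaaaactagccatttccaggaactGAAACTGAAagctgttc
Igtp (chr11:58199479-58199538, plus strand): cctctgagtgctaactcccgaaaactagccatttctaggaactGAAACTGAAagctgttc
Oas1a (chr5:120907526-120907585, minus strand): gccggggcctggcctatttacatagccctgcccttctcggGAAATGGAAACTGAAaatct
Oas3 (chr5:120777712-120777771, minus strand): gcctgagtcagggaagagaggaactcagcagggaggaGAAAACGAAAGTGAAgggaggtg
Isg15 (chr4:156200868-156200927, minus strand): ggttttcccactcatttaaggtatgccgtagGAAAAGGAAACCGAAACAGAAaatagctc
Bst2 (chr8:71537580-71537639, minus strand): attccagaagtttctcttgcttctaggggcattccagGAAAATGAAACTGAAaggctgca

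All 3 GBP genes had a window and all 3 held the ISRE-type letters, while none of the 3 receptor genes did. The stretches of the neighbouring genes Irgm2 and Igtp were identical at 59 of 60 bases. GAS-type letters, searched as TTCNNNGAA, occur in the windows of 9.55% of all genes. They were found in 11 of the 28 members with a window (39.3%), among them the receptor genes Ifnar1 and Ifnar2. Of the 10 genes shown, Gbp7, Irgm2, Igtp, Oas1a and Bst2 held them. A match is a description of letters and not a measured binding site. The RefSeq start can lie inside the gene position of the deposited table, as for Gbp2, Irgm1 and Irgm2. Letters before that start can therefore lie inside the gene as well.

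Before the members, the labels were checked. Mc5r had 0, 0 and 1 counts in the Mc5r-null libraries and 181, 157 and 198 in the wild-type libraries. Gene counts summed to 13983016 to 14076870 per Mc5r-null library and to 14903723 to 14953169 per wild-type library. The LSK markers Cd34 (654 ± 5.69 CPM in Mc5r-null and 553 ± 19.7 CPM in wild type; SD, n = 3 each) and Flt3 (529 ± 3.55 CPM in Mc5r-null and 391 ± 2.17 CPM in wild type) were abundant. CPM scales the gene counts of each library to the same total. Xist, the RNA of the inactive X chromosome in females, had 0, 2 and 2 counts in Mc5r-null and 1224, 1167 and 1281 in wild type, while the Y-linked gene Eif2s3y had 755, 880 and 752 counts in Mc5r-null and 899, 910 and 857 in wild type. Xist RNA was thus present in each wild-type library and nearly absent from the Mc5r-null ones, while Y-linked RNA was present in all 6, so the mix of sexes in a library and its genotype cannot be told apart for the genes below. Nothing in the labels says that libraries came from separate mice, so the spread between libraries may be technical. The standard errors (SE), intervals and p-values below rest on that spread and may not measure variation between mice. Rises and falls below are thus differences between these libraries.

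Over the 39 genes, 11 were lower and 3 were higher in the Mc5r-null libraries by edgeR's quasi-likelihood test, with Benjamini-Hochberg adjustment over all 15257 genes tested and a threshold of 0.05. The lower genes were 28.2% of the list, against 16.1% of all genes tested, and the higher ones 7.69%, against 16.8%. As the list was chosen with earlier results of these data known, these shares are a description only. Together 35.9% of the list was called, against 32.9% of all genes tested, so the share of genes called was close to that of the genome as a whole. Counts within the families below are of few genes and stand beside the same shares of all genes. The median log2 fold change, Mc5r-null over wild type, was -0.17 in the list and -0.005 over all genes tested. Values of the 2 genotypes did not overlap for 19 of the 39 genes (48.7%), against 49.8% of all genes tested. The summed level of the list was 1215 to 1269 CPM in the Mc5r-null libraries and 1378 to 1386 CPM in the wild-type libraries. The ratio was 0.898 in CPM and 0.919 with the TMM scaling used in the test.

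**Figure D1:**
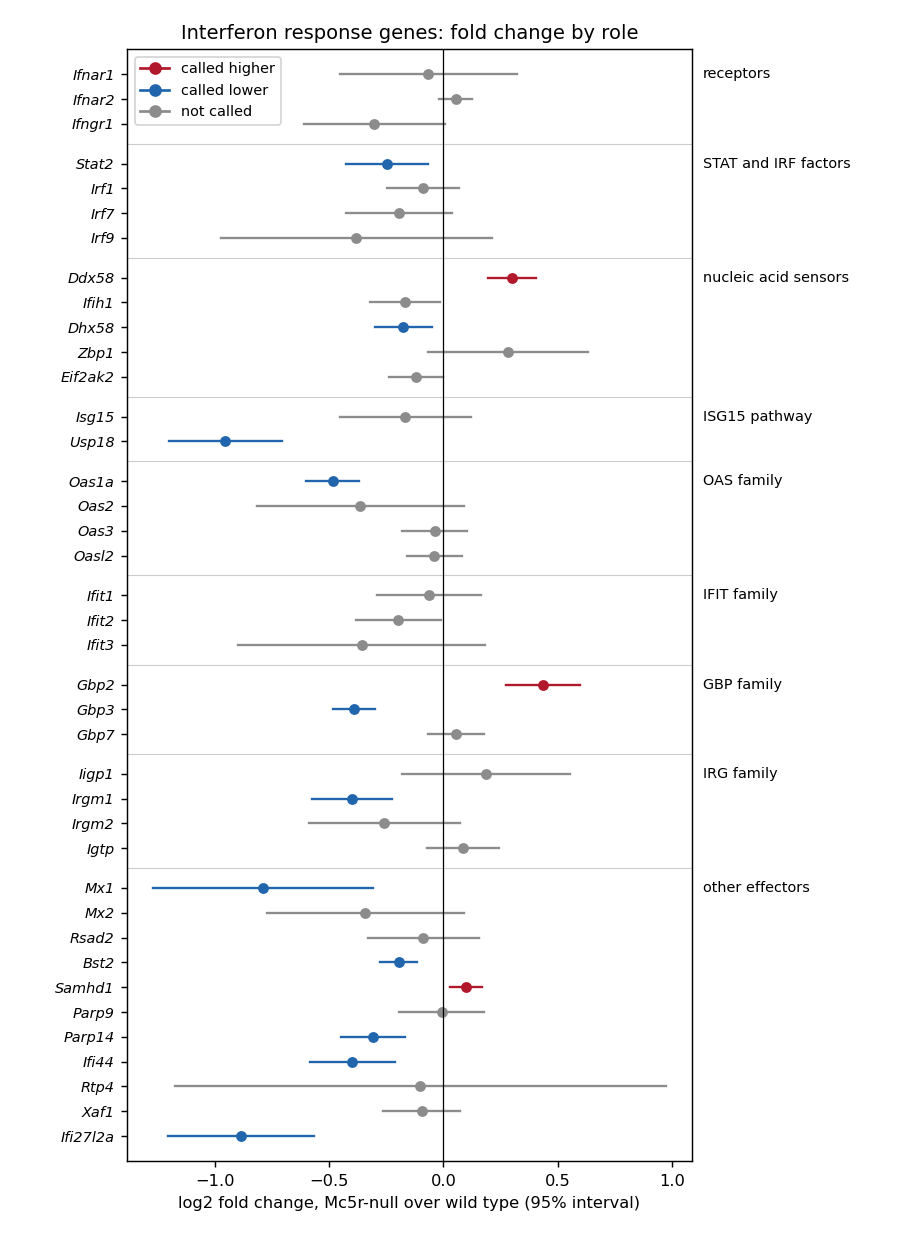
Fold changes of the 39 interferon response genes by role. Points are log2 fold changes (Mc5r-null over wild type), lines are 95% intervals of single genes, and colours give the call at an adjusted p under 0.05; 11 genes lie below 0 and 3 above 0 among those called, while Usp18 and Ifi27l2a lie farthest from 0 among them.

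Levels between genes were compared as the deposited FPKM values, which scale counts by gene length and library size. Bst2, which encodes tetherin, a membrane protein that holds budding virus at the cell surface, had the highest level, with 73.2 ± 1.803 FPKM in Mc5r-null and 85.9 ± 1.92 FPKM in wild type (SD, n = 3 each). Next came the receptor gene Ifngr1, with 20.9 ± 2.97 FPKM in Mc5r-null and 26.4 ± 2.45 FPKM in wild type. The ubiquitin-like modifier gene Isg15 had 13.7 ± 2.24 FPKM in Mc5r-null and 15.8 ± 0.837 FPKM in wild type. At the low end, Mx1 had 0.462 ± 0.0876 FPKM in Mc5r-null and 0.819 ± 0.192 FPKM in wild type, and Iigp1 had 0.619 ± 0.134 FPKM in Mc5r-null and 0.557 ± 0.0115 FPKM in wild type. In all 6 libraries 34 of the 39 genes had at least 1 FPKM.

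**Figure D2:**
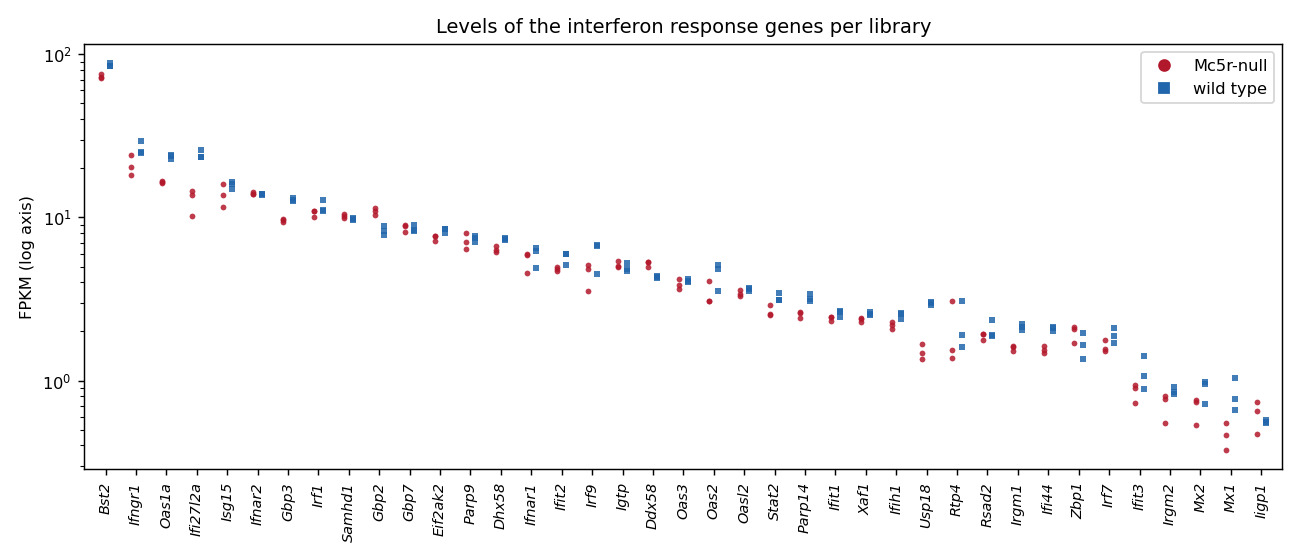
Levels of the 39 genes in each library as deposited FPKM on a log axis, ordered by the mean over both genotypes, with 3 Mc5r-null (circles) and 3 wild-type libraries (squares) per gene. Bst2 stands above all others, and Ifit3, Irgm2, Mx2, Mx1 and Iigp1 are the 5 lowest.

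The receptor genes did not pass the test. Ifnar1 had 48.7, 62.9 and 62.1 CPM in the Mc5r-null libraries and 68.6, 51.6 and 66.0 CPM in the wild-type libraries, with overlapping groups, and its 95% interval of the log2 fold change was -0.45 to 0.32. Ifnar2 lay at 84.95, 85.6 and 87.2 CPM in Mc5r-null and 85.3, 85.1 and 84.0 CPM in wild type. Its interval was narrow, at -0.019 to 0.12. Ifnar2 shares 315 exonic bases with Gm21970 on the same strand, so the split of its reads is uncertain. Ifngr1, at 75.2, 84.1 and 99.4 CPM in Mc5r-null and 104, 102 and 120.4 CPM in wild type, was below wild type in each library without passing (edgeR adjusted p = 0.122). Without Mc5r-null replicate 3 it passed (log2 fold change -0.41, adjusted p = 0.027), with adjusted p 0.00663 to 0.267 over the alternatives. None of the 3 receptor genes had an unadjusted p under 0.05 with edgeR, and none was called by DESeq2 or limma-voom.

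Among the STAT and IRF factors, Stat2 was called lower and the others were not. Stat2, the ISGF3 subunit specific to type I and III interferon signals, had 23.7, 20.5 and 20.9 CPM in Mc5r-null and 25.5, 25.5 and 27.9 CPM in wild type. The groups did not overlap, with a log2 fold change of -0.25 ± 0.078 SE (edgeR adjusted p = 0.0418). The call held under 7 of 14 alternatives (adjusted p 0.0199 to 0.161) and was lost, among others, with DESeq2 and on leaving out any library other than Mc5r-null replicate 1. Irf9, the DNA-binding subunit of ISGF3, had 32.7, 47.2 and 44.7 CPM in Mc5r-null and 61.5, 62.8 and 41.8 CPM in wild type, and 1 wild-type library lay among the Mc5r-null values (edgeR adjusted p = 0.275). Irf7, which amplifies interferon production, had 16.0, 18.0 and 15.6 CPM in Mc5r-null and 17.4, 21.6 and 19.2 CPM in wild type (edgeR adjusted p = 0.178). Irf1, a factor induced by interferon gamma, had 61.5 ± 3.00 CPM in Mc5r-null and 66.9 ± 6.19 CPM in wild type (SD, n = 3 each; edgeR adjusted p = 0.374). All 4 estimates were below 0, from -0.38 to -0.088 on the log2 scale.

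The 3 RIG-I-like receptor genes differed in direction. Ddx58 encodes RIG-I, a helicase that detects RNA with a 5′ triphosphate (chromosome 4, 40203773 to 40239828, minus strand). It had 58.0, 57.8 and 54.5 CPM in the Mc5r-null libraries and 47.8, 46.4 and 47.4 CPM in the wild-type libraries. Each Mc5r-null library lay above each wild-type library, and Ddx58 rose 1.23-fold (log2 fold change 0.30 ± 0.046 SE, edgeR adjusted p = 0.00143). Dhx58 encodes LGP2, a relative of RIG-I without the signalling domain (chromosome 11, 100694884 to 100704271, minus strand). Its values were 27.0, 27.8 and 29.2 CPM in Mc5r-null and 32.8, 32.3 and 31.9 CPM in wild type, and it fell 1.13-fold (log2 fold change -0.17 ± 0.055 SE, edgeR adjusted p = 0.0403). The call of Dhx58 held under 6 of 14 alternatives (adjusted p 0.0341 to 0.254) and was lost, among others, with DESeq2, with no filter on low counts and on leaving out any library except Mc5r-null replicate 3. Ifih1, which encodes MDA5, the sensor of long double-stranded RNA, had 24.8, 25.8 and 23.4 CPM in Mc5r-null and 28.8, 26.8 and 29.4 CPM in wild type and did not pass (edgeR adjusted p = 0.0918).

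Outside that family the sensors were not called. Eif2ak2, which encodes the RNA-activated kinase PKR, had 42.0, 44.8 and 45.4 CPM in Mc5r-null and 50.02, 49.9 and 47.0 CPM in wild type (edgeR adjusted p = 0.116). Zbp1, a sensor of Z-form nucleic acid that triggers necroptosis, had 8.25, 10.3 and 9.94 CPM in Mc5r-null and 9.496, 7.97 and 6.51 CPM in wild type, with overlapping groups (edgeR adjusted p = 0.198). Over the 5 sensors the summed level was 160.0 to 167 CPM in Mc5r-null and 162 to 169 CPM in wild type, so the summed levels overlapped.

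Usp18 had the greatest fall of the list. It encodes the protease that removes ISG15 from proteins and blocks signalling at the IFNAR2 chain, and lies on chromosome 6, 121245906 to 121270917, plus strand. The Mc5r-null libraries held 4.70, 5.75 and 5.08 CPM and the wild-type libraries 10.5, 9.98 and 10.3 CPM, from counts of 66, 81 and 71 in Mc5r-null and 157, 149 and 154 in wild type. The groups lay far apart relative to their spread, and Usp18 fell 1.94-fold (log2 fold change -0.95 ± 0.11 SE, edgeR adjusted p = 0.000288; adjusted p 2.07e-05 to 0.00283 over 14 alternatives). Isg15, the modifier that Usp18 removes, had 11.2, 8.10 and 9.58 CPM in Mc5r-null and 10.4, 11.6 and 11.2 CPM in wild type. Its groups overlapped and it did not pass (edgeR adjusted p = 0.354, 95% interval of the log2 fold change -0.45 to 0.12). The promoter stretch of Isg15 shown above holds 3 overlapping ISRE-type matches.

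In the OAS family, whose enzymes make 2′-5′-linked oligoadenylate that activates RNase L, Oas1a was called lower and the other 3 were not called. Oas1a (chromosome 5, 120896256 to 120907521, minus strand) had 31.6, 30.5 and 31.1 CPM in the Mc5r-null libraries and 42.9, 45.6 and 45.0 CPM in the wild-type libraries. It fell 1.40-fold with no overlap (log2 fold change -0.48 ± 0.050 SE, edgeR adjusted p = 0.000178). Oas1a belongs to a cluster of related Oas1 genes, among which the split of reads is uncertain. Oas2 had 25.1, 25.2 and 33.6 CPM in Mc5r-null and 41.9, 29.2 and 39.4 CPM in wild type. Mc5r-null replicate 3 lay above wild-type replicate 2, and Oas2 passed only without that wild-type library (log2 fold change -0.51, adjusted p = 0.044) and not in the full fit (edgeR adjusted p = 0.192; 0.044 to 0.396 over the alternatives). Oas3 had 32.4, 30.4 and 35.0 CPM in Mc5r-null and 34.0, 33.8 and 35.0 CPM in wild type (edgeR adjusted p = 0.692). Oasl2, a ubiquitin-like relative, had 38.6, 35.5 and 36.5 CPM in Mc5r-null and 39.5, 38.1 and 38.8 CPM in wild type (edgeR adjusted p = 0.602). The intervals of the log2 fold change were -0.18 to 0.10 for Oas3 and -0.16 to 0.080 for Oasl2, so falls of the size estimated for Oas1a lay outside them. Both Oas1a and Oas3 hold 2 overlapping ISRE-type matches in the stretches shown above.

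The IFIT genes encode proteins that bind viral RNA lacking the host cap methylation, and none of the 3 was called. Ifit1 had 6.55, 6.18 and 6.51 CPM in Mc5r-null and 7.09, 6.50 and 6.98 CPM in wild type (edgeR adjusted p = 0.722). Ifit2 was below wild type in each library, at 21.2, 21.7 and 20.5 CPM in Mc5r-null and 26.2, 25.9 and 22.2 CPM in wild type (edgeR adjusted p = 0.0972). Leaving out wild-type replicate 3 was the sole setting in which it passed, with an estimate of -0.27 on the log2 scale (adjusted p = 0.0247; 0.0247 to 0.308 over the alternatives). Ifit3 had few counts, 22, 18 and 23 in Mc5r-null and 28, 37 and 23 in wild type, and can share reads with the similar Ifit3b (edgeR adjusted p = 0.287). With edgeR 1 of the 3 genes had an unadjusted p under 0.05, and neither DESeq2 nor limma-voom called any. The family's summed level was 28.6 to 29.3 CPM in Mc5r-null and 30.7 to 35.2 CPM in wild type. Ifit2 carried most of that sum, with means of 21.1 CPM in Mc5r-null and 24.8 CPM in wild type. The groups of Ifit1 and Ifit3 overlapped.

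The 3 guanylate-binding protein genes lie near each other on chromosome 3 and differed: 1 was higher, 1 lower and 1 not called. Gbp2 (chromosome 3, 142620602 to 142638008, plus strand), a GTPase that attacks vacuoles of intracellular parasites, had 29.5, 32.5 and 31.0 CPM in the Mc5r-null libraries and 22.1, 25.0 and 23.4 CPM in the wild-type libraries. Each Mc5r-null library was above each wild-type library, and Gbp2 rose 1.35-fold (log2 fold change 0.43 ± 0.070 SE, edgeR adjusted p = 0.00194). Gbp3 (chromosome 3, 142560026 to 142573209, plus strand) had 58.6, 59.5 and 56.5 CPM in Mc5r-null and 76.7, 80.1 and 77.8 CPM in wild type. It fell 1.31-fold (log2 fold change -0.39 ± 0.040 SE, edgeR adjusted p = 0.00016). Gbp7 (chromosome 3, 142530342 to 142550149, plus strand) had 58.3, 53.4 and 58.8 CPM in Mc5r-null and 54.4, 58.8 and 54.7 CPM in wild type, with overlapping groups (edgeR adjusted p = 0.469, interval -0.066 to 0.18). It shares 637 exonic bases with the pseudogene Gm43802 on the same strand, so the split of its reads is uncertain. The calls of Gbp2 and Gbp3 held under each of 14 alternatives, with adjusted p 0.000595 to 0.00895 for Gbp2 and 6.67e-06 to 0.00155 for Gbp3. All 3 genes hold ISRE-type letters before their RefSeq start, as printed above.

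Of the 4 IRG genes, Irgm1 was called lower and 3 were not called. Irgm1 encodes a regulatory GTPase that restrains the effector IRG proteins, and stem cells of mice lacking it are known to cycle excessively. It had 13.4, 12.4 and 13.1 CPM in the Mc5r-null libraries and 18.3, 17.5 and 16.8 CPM in the wild-type libraries (chromosome 11, 48861968 to 48871683, minus strand). Irgm1 fell 1.32-fold without overlap (log2 fold change -0.40 ± 0.076 SE, edgeR adjusted p = 0.00445). Irgm2, a second regulatory member, had 5.76, 8.38 and 8.01 CPM in Mc5r-null and 8.63, 9.58 and 8.92 CPM in wild type (edgeR adjusted p = 0.212). Igtp, known as Irgm3, had 25.5, 27.5 and 25.7 CPM in Mc5r-null and 27.0, 24.2 and 24.8 CPM in wild type (edgeR adjusted p = 0.389). Those 2 annotated genes overlap on the same strand and share 162 exonic bases, so the split of their reads is uncertain. The effector gene Iigp1 had 7.47, 8.45 and 5.44 CPM in Mc5r-null and 6.55, 6.30 and 6.37 CPM in wild type (edgeR adjusted p = 0.42).

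Of the 11 other effector genes, 5 were lower and 1 was higher, beside 16.1% lower and 16.8% higher among all genes tested. Ifi27l2a encodes a small mitochondrial membrane protein (chromosome 12, 103442167 to 103443680, minus strand). It had 6.33, 6.75 and 4.72 CPM in Mc5r-null and 10.8, 12.1 and 10.8 CPM in wild type. With no overlap it fell 1.85-fold (log2 fold change -0.89 ± 0.14 SE, edgeR adjusted p = 0.00174). Mx1, a dynamin-like GTPase that blocks influenza virus, had low counts of 43, 35 and 51 in Mc5r-null and 65, 102 and 76 in wild type. Its fall of 1.73-fold (edgeR adjusted p = 0.0209) was not called without Mc5r-null replicate 1, Mc5r-null replicate 2 or wild-type replicate 2 (adjusted p = 0.0564, 0.0665 and 0.0582; 0.0103 to 0.0665 over the alternatives). Its neighbour Mx2, annotated as a polymorphic pseudogene, had 2.70, 3.77 and 3.86 CPM in Mc5r-null and 4.95, 3.62 and 4.83 CPM in wild type (edgeR adjusted p = 0.206).

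Ifi44, Parp14 and Bst2 fell by smaller steps. Ifi44, a cytoplasmic GTPase-like protein gene, had 11.5, 12.2 and 11.01 CPM in Mc5r-null and 15.8, 16.0 and 15.03 CPM in wild type (log2 fold change -0.40 ± 0.081 SE, edgeR adjusted p = 0.00613). Parp14, an ADP-ribosyltransferase gene, had 27.7, 29.5 and 29.8 CPM in Mc5r-null and 36.2, 38.8 and 35.2 CPM in wild type (log2 fold change -0.31 ± 0.061 SE, edgeR adjusted p = 0.00555). For Bst2, the most abundant member, the values were 84.9, 81.8 and 81.0 CPM in Mc5r-null and 95.2, 96.1 and 99.3 CPM in wild type (log2 fold change -0.20 ± 0.035 SE, edgeR adjusted p = 0.00342). In each of these genes all Mc5r-null libraries lay below all wild-type libraries. The calls of Usp18, Ifi27l2a, Oas1a, Irgm1, Ifi44, Gbp3, Parp14, Bst2, Ddx58 and Gbp2 held under each of 14 alternatives.

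Of the remaining effector genes, Samhd1 alone was called. Samhd1, which destroys the nucleotides that retroviruses need, was called higher at 119, 115 and 121 CPM in Mc5r-null and 111, 113 and 115 CPM in wild type, a rise of 1.07-fold (edgeR adjusted p = 0.04). Its groups overlapped, and the call held under 5 of 14 alternatives (adjusted p 0.0315 to 0.296). Among the settings that lost it were DESeq2, upper-quartile scaling, no filter, and leaving out any library except Mc5r-null replicate 2. Parp9, the partner of DTX3L, had 49.4, 43.9 and 39.7 CPM in Mc5r-null and 47.4, 46.0 and 43.3 CPM in wild type, with an interval of -0.19 to 0.18, and 458 of its exonic bases overlap Dtx3l on the other strand. Rsad2, which encodes viperin, had 14.9, 14.7 and 13.6 CPM in Mc5r-null and 14.6, 14.3 and 18.0 CPM in wild type (edgeR adjusted p = 0.575). The apoptosis-linked gene Xaf1 had 13.6 ± 0.409 CPM in Mc5r-null and 14.8 ± 0.313 CPM in wild type (SD, n = 3 each; edgeR adjusted p = 0.386). Rtp4, a receptor chaperone gene, varied most within a genotype, at 6.69, 5.97 and 13.2 CPM in Mc5r-null and 6.96, 13.2 and 8.25 CPM in wild type. The highest Mc5r-null library of Rtp4 was 2.22 times the lowest and the highest wild-type library 1.90 times the lowest, so no difference was detectable (edgeR adjusted p = 0.882). Rtp4 shares 296 exonic bases with Gm45338 on the same strand, so the split of its reads is uncertain.

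**Figure D3:**
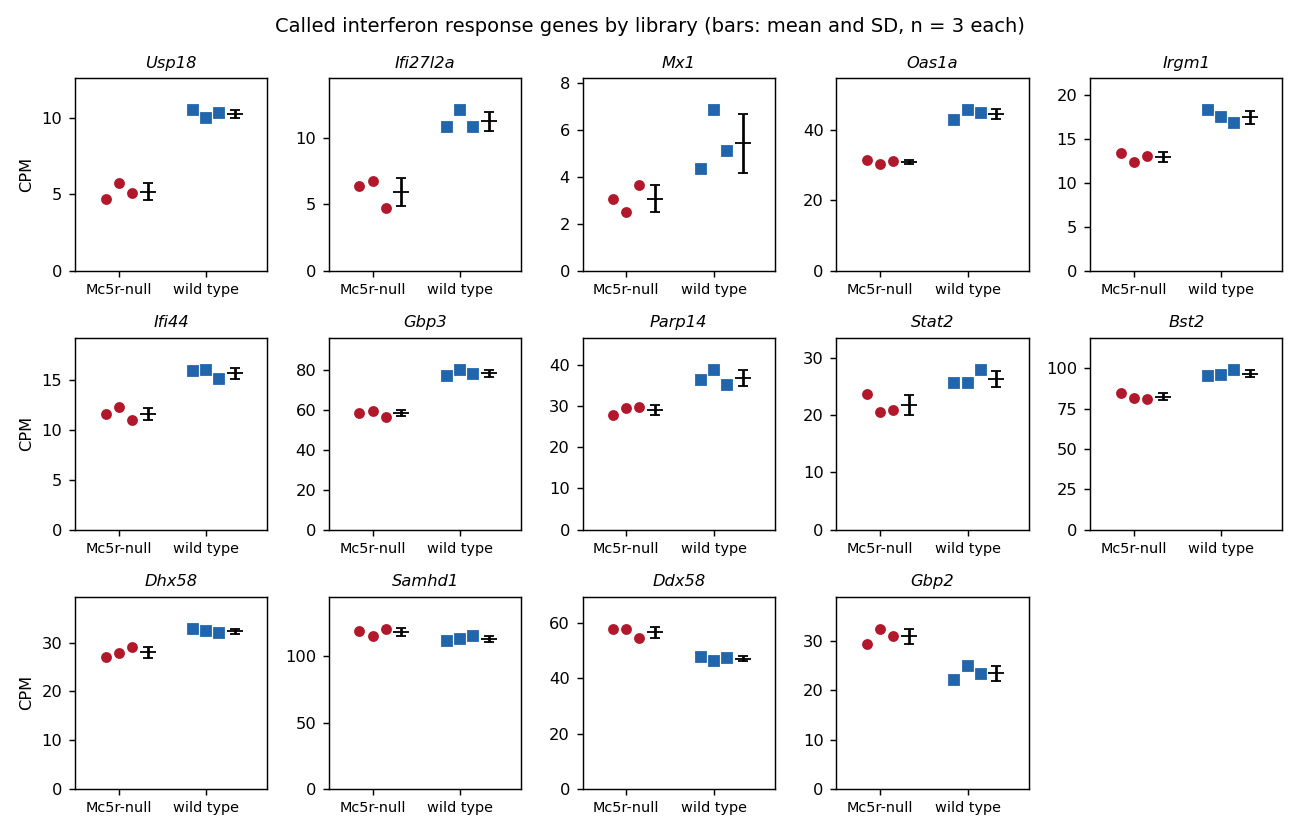
The 14 called genes in each library as CPM, with axes from 0, ordered by log2 fold change. Circles are Mc5r-null and squares wild-type libraries, and bars are mean and SD (n = 3 each). The groups are separate in 13 genes and overlap in Samhd1. The genes were picked by the test on these libraries, so their separation is no further result. Of all genes tested, 49.8% did not overlap.

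Other genes of the pathway were taken from a list of 113 genes that holds none of the 39. Of 90 tested, 10 were higher and 15 were lower, and the median of their log2 fold changes was -0.04; of all genes tested, 16.8% were higher and 16.1% lower. Most classes were small, and a difference between classes was not tested. Of 6 receptor chains and kinases 1 was higher and 2 lower, of 10 other STAT and IRF factors 5 were higher and 2 lower, of 14 adaptors and inducers of interferon none was higher and 2 lower, and of 52 other interferon-induced genes 4 were higher and 9 lower. No inhibitor of the pathway was called among 8 with edgeR, DESeq2 or limma-voom, and 2 had an unadjusted p under 0.05 with edgeR. Among the adaptors, none was higher with DESeq2, limma-voom or at an unadjusted p under 0.05.

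Among receptor chains and kinases, genes were called in both directions. Ifngr2, the second chain of the interferon gamma receptor, had 19.9, 19.9 and 18.7 CPM in Mc5r-null and 26.6, 28.3 and 28.3 CPM in wild type and fell 1.39-fold (edgeR adjusted p = 0.000801). Tyk2 fell 1.09-fold (edgeR adjusted p = 0.0157), whereas Jak1 rose 1.14-fold (edgeR adjusted p = 0.000331). JAK1 serves many cytokine receptors beside those of interferon. The feedback inhibitor gene Socs1 had 6.76, 7.96 and 6.72 CPM in Mc5r-null and 9.03, 8.24 and 7.05 CPM in wild type (edgeR adjusted p = 0.425).

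The largest rise among called genes of this wider list was that of Irf4. Irf4, the factor of plasma cells and activated lymphocytes, had 40.6, 42.0 and 43.1 CPM in Mc5r-null and 16.7, 18.8 and 18.8 CPM in wild type and rose 2.37-fold (edgeR adjusted p = 2.7e-06). Shisa5, a p53- and interferon-inducible gene, rose 1.39-fold (edgeR adjusted p = 6.23e-06). Irf2bp2 fell 1.15-fold (edgeR adjusted p = 0.000204) and Cmpk2, a nucleotide kinase gene beside Rsad2, fell 1.48-fold (edgeR adjusted p = 0.00021).

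**Figure D4:**
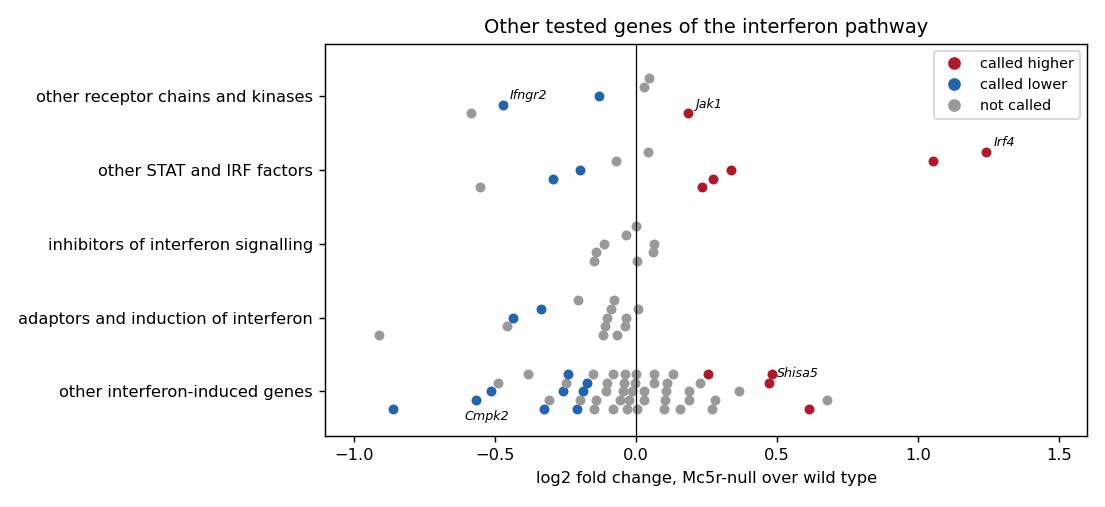
Log2 fold changes (Mc5r-null over wild type) of the 90 tested genes of the wider interferon pathway, 1 point per gene and 1 row per class, spread vertically only to separate points. Coloured points passed an adjusted p under 0.05; Irf4 stands farthest to the right at 1.24.

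Transcripts of the interferons themselves were near the limit of detection in both genotypes, and none of 12 ligand genes passed the filter. Ifng had 15, 10 and 7 counts in Mc5r-null and 5, 6 and 4 in wild type, and Ifnb1 had 9, 0 and 4 in Mc5r-null and 7, 4 and 2 in wild type. Ifna2 had 6, 2 and 3 counts in Mc5r-null and 5, 6 and 3 in wild type, and Ifna1 had 1, 1 and 2 in Mc5r-null and 4, 0 and 1 in wild type. Ifna4 had 0, 0 and 2 in Mc5r-null and 1, 0 and 3 in wild type. A single count of Ifna5 fell in a wild-type library, and Ifnl3 (1 count) and Ifnz (2 counts) had counts in Mc5r-null libraries alone. Ifna13, Ifne, Ifnk and Ifnl2 had 0 counts in all libraries.

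Markers of other cell types moved with genotype beside these genes. In bulk RNA, fewer cells of a type and less RNA per cell cannot be told apart. Monocyte and macrophage markers, cells that express many interferon-stimulated genes, summed to 480 to 508 CPM in Mc5r-null and 860 to 966 CPM in wild type, with 6 of 8 lower and 1 higher. Plasmacytoid dendritic cells, known for high Bst2 and Irf7, had markers at 175 to 243 CPM in Mc5r-null and 148 to 168 CPM in wild type, with 2 of 7 tested lower. Tcf4, not called, carried that sum, at 128, 128 and 193 CPM in Mc5r-null and 92.8, 106 and 109.7 CPM in wild type, and without it the list summed to 47.7 to 52.2 CPM in Mc5r-null and 55.4 to 59.7 CPM in wild type. The 2 lower genes were Siglech (2.90 ± 0.591 CPM in Mc5r-null and 5.94 ± 0.673 CPM in wild type; SD, n = 3 each) and Spib (3.70 ± 0.571 CPM in Mc5r-null and 8.13 ± 1.199 CPM in wild type), while Ccr9, Tcf4 and Ly6d had positive log2 fold changes that were not called (0.25, 0.57 and 0.066). Neutrophil markers summed to 2784 to 2825 CPM in Mc5r-null and 3785 to 4072 CPM in wild type (5 of 8 lower, 1 higher), and basophil and mast cell markers to 257 to 313 CPM in Mc5r-null and 487 to 528 CPM in wild type (7 of 8 lower). T and NK cell markers summed to 213 to 220 CPM in Mc5r-null and 274 to 277 CPM in wild type, with 1 of 4 tested lower and 1 higher. The lower gene, Nkg7, carried that sum, and without it the list summed to 10.6 to 12.1 CPM in Mc5r-null and 7.84 to 8.19 CPM in wild type, Cd3e being the gene called higher (log2 fold change 2.18, edgeR adjusted p = 0.0201). Plasma cell markers, whose cells depend on Irf4, summed to 35112 to 37547 CPM in Mc5r-null and 11052 to 11126 CPM in wild type (8 of 8 higher). B cell markers summed to 154 to 159 CPM in Mc5r-null and 144 to 151 CPM in wild type, with 2 of 8 higher and 4 lower, but without Cd79a to 84.0 to 90.6 CPM in Mc5r-null and 108 to 117 CPM in wild type. Erythroid markers summed to 169.1 to 169.9 CPM in Mc5r-null and 26.4 to 27.1 CPM in wild type, with 7 of 8 higher. LSK markers were 1625 to 1652 CPM in Mc5r-null and 1312 to 1344 CPM in wild type, with 6 of 8 higher. Without its most abundant gene, each of the other 6 lists lay on the same side of wild type as with it. No marker of the 9 lists had 0 counts in all libraries. The part of these shifts, and of sex, in the values of the interferon response genes was not tested.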

How the data were processed

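Poly-A RNA was sequenced as paired-end stranded libraries, per the labels' protocols. The authors deposited 1 table of 55487 genes with whole-number counts per gene, not normalized, and FPKM values beside them, per the file headers. CASAVA 1.8, HISAT2, StringTie, edgeR and build GRCm38 are named in the submitters' processing notes without roles; the counting program, its annotation and its use of strand are not given in the sources used here, so overlapping genes on either strand may share reads. Gene positions are those of the table, on GRCm38, and 99.4% of the genes found in GENCODE M21 had the same position there.

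Counts of all 6 libraries were fitted with edgeR 4.0.16 (R 4.3.3): filterByExpr (minimum count 10, minimum total 15), TMM scaling, robust quasi-likelihood F-test, Benjamini-Hochberg over all genes. The SE is the log2 fold change divided by the square root of F, and 95% intervals are for single genes. Alternatives were RLE and upper-quartile scaling, DESeq2 1.42.0, limma-voom (limma 3.58.1), other filters, the replicate block, each library left out, an adjusted p of 0.01, and the table without immunoglobulin and haemoglobin genes. Between libraries of 1 genotype, counts differed by a mean chi-square per degree of freedom of 6.11 to 8.40 over genes. The median was 0.673 to 0.719, so that a minority of genes carried the mean. That median is above that of a chi-square with 1 degree of freedom, so the typical gene also varied somewhat beyond random counting. No library was a copy of another.

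The members and lists were chosen with earlier results of these data known. All 39 members are named; of the other pathway genes, those among the 6 called genes with the smallest p, Ifngr2, Jak1, Tyk2, Socs1 and each ligand, except that some genes under this rule are not reported here; of markers, those most abundant, with Siglech, Spib, Ccr9, Ly6d, Cd3e, Cd79a and the sex-linked genes chosen after values were seen. Promoter sequences come from RefSeq (GRCm38.p6). Features of proteins were not analysed here.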

Additional observations from a re-analysis of the deposited data

How the results depend on the processing

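The count of 11 lower and 3 higher members kept within 1.5 times under every alternative run: 8 to 11 were lower and 2 to 3 higher without 1 library, 9 and 2 with DESeq2, and 8 and 2 at an adjusted p under 0.01. The other pathway genes stayed at 14 to 16 lower and 10 to 11 higher without 1 library. Over all genes, DESeq2 called 1656 higher and 1446 lower and an adjusted p under 0.01 left 1552 and 1444, against 2567 and 2456, while leaving out 1 library gave 2080 to 2124 higher and 1986 to 2094 lower. The ratio of the members' summed level was 0.9186 with TMM-scaled libraries, against 0.898 in CPM. It thus moved by more than its SD from the library SDs, 0.0195. Both values lay below 1, and scaling itself sets the difference. Of 546 values of single members under alternatives, 505 kept direction and side of the threshold, 27 lost a call, 4 gained one and 10 changed sign. None of the sign changes was in a called gene. Parp9 came to 0.001 without immunoglobulin and haemoglobin genes. Without 1 library the log2 fold change ranged from -0.093 to 0.069 for Parp9, -0.186 to 0.042 for Ifnar1, -0.544 to 0.212 for Rtp4, -0.089 to 0.008 for Oas3 and -0.149 to 0.023 for Rsad2. Equal replicate numbers of the genotypes share only a number: deviations from the genotype means correlated at 0.00255, -0.0408 and -0.0240 across genes. With the replicate block 10 members were lower and 2 higher, Stat2, Dhx58 and Samhd1 losing their call and Ifngr1 gaining one (adjusted p = 0.00663); the other pathway genes came to 16 and 10, and all genes to 2148 and 2254. Members with few counts, such as Ifit3 and Mx1, have the widest intervals beside Rtp4 and Irf9. The cause of the losses was not tested.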

Other observations

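Some genes of the wider pathway varied widely within a genotype, and those named were chosen after their values were seen. Irf8, a factor of monocyte and dendritic cell development, had 153, 157 and 155 CPM in Mc5r-null and 142, 293 and 262 CPM in wild type, so that wild-type replicate 1 lay beside the Mc5r-null libraries (edgeR adjusted p = 0.253). The endosomal RNA sensor gene Tlr7 had 7.40, 3.48 and 7.44 CPM in Mc5r-null and 4.01, 9.85 and 6.44 CPM in wild type (edgeR adjusted p = 0.872). Slfn2, a regulator of immune cell quiescence, had the greatest fall among the called genes of the wider list, at 11.3, 14.6 and 11.8 CPM in Mc5r-null and 22.3, 25.9 and 22.0 CPM in wild type (log2 fold change -0.86 ± 0.12 SE, edgeR adjusted p = 0.000767).

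In the Oas1 cluster the directions differed between relatives, with the same reservation on shared reads. Oas1g, next of kin of Oas1a, had 10.96, 11.8 and 10.6 CPM in Mc5r-null and 16.6, 16.2 and 16.0 CPM in wild type and fell (edgeR adjusted p = 0.00158). Oas1c rose, with 7.54, 7.89 and 7.51 CPM in Mc5r-null and 4.55, 5.76 and 5.03 CPM in wild type (edgeR adjusted p = 0.00476).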
